A study of Mus musculus with 4 samples.

Results

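Receptor chains for the inflammatory cytokines IL-18, IL-33, IL-12, IL-23 and the IL-17 family were examined in CD8 T cells with and without the transcription factor Klf13. The set is a list of 8 genes: Il18r1, Il18rap, Il1rl1, Il12rb1, Il12rb2, Il23r, Il17ra and Il17rb. Of these 8, 7 were read among 19938 genes tested, each from the single probe set that the platform annotation pairs with its symbol alone. No probe set was paired with Il1rl1, the IL-33 receptor chain, so it was not analysed here. The cells were naive CD8 T cells isolated by flow cytometry from the spleen of BALB/c mice, either wild type (WT, 2 arrays) or Klf13 knockout (KO, 2 arrays). For each array 200 ng of total RNA with an integrity number above 9 was labelled, and the series concerns memory-like CD8 T cells. The sources used here do not give the age or sex of the mice, the deleted part of Klf13 or whether the 2 samples of a genotype came from separate animals. The spread between the 2 samples of a genotype may therefore be technical in part or in full. The p-values combine each gene's own spread with a spread shared over all genes, through limma's empirical Bayes moderation (prior degrees of freedom 8.06).

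These receptors let lymphocytes respond to inflammatory cytokines, in part without antigen. IL-18 binds the chain encoded by Il18r1 and recruits the accessory chain of Il18rap, which together signal through MyD88 to NF-kB. IL-12 signals through the shared chain of Il12rb1 and the private chain of Il12rb2 to STAT4, whereas IL-23 uses Il12rb1 with Il23r and signals mainly to STAT3. IL-12 and IL-18 together drive interferon-gamma in memory CD8 T cells, while Il23r is known from type 17 and gamma-delta T cells. Il17ra encodes the widely expressed common chain of the IL-17 receptors. Il17rb encodes its partner for IL-25 and is known from type 2 innate lymphoid cells and a subset of NKT cells.

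The sequence upstream of each start site is shown for the 3 chains that passed the test in the comparison of genotypes. The sequences are those of RefSeq for the assembly GRCm38.p6, which held entries for 6 of the 8 chains. They cover the 250 bases before the start, 5′ to 3′ on the strand of the gene, at chr1:40515112-40515361 (plus strand) for Il18rap, chr6:67491856-67492105 (minus strand) for Il23r and chr14:30008897-30009146 (minus strand) for Il17rb. Capitals mark matches, on either strand, to 4 motifs: CACCC and GGGCGG, the kinds of sequence bound by KLF and SP factors, TTCNNNGAA, the kind bound by STAT factors, and AGGTCA, the core site of nuclear receptors such as the ROR factors.
Il18rap: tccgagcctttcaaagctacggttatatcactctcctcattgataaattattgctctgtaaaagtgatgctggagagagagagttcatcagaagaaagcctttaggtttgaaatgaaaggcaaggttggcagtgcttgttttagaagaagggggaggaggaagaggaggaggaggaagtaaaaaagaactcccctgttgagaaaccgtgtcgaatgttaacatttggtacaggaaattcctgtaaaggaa
Il23r: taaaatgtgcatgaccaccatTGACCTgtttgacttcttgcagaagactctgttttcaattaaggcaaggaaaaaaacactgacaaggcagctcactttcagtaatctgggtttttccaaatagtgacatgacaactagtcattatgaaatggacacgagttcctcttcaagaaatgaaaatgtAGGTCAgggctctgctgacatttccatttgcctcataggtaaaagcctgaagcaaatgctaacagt
Il17rb: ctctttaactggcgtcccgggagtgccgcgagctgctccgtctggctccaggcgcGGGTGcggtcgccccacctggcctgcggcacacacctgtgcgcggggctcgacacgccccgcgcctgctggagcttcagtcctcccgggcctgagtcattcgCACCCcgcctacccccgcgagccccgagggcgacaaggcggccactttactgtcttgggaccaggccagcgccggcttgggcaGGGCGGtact

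By GC content, the upstream sequences of Il18rap and Il23r lay below the median of all windows and that of Il17rb above it. Of the 4 motifs, none matched in more than 1 of the 3 upstream sequences. That of Il18rap held 0 matches to the 4 motifs and had a GC content of 42%. That of Il23r, with a GC content of 39.6%, held 2 matches to AGGTCA, at 66 to 61 and 229 to 224 bases before the start, and 0 matches to the other motifs. That of Il17rb was GC-rich at 72%, against a median of 52.4% over the 32851 windows of the table. It held 2 matches to CACCC, at 93 to 89 and 195 to 191 bases before the start, and 1 match to GGGCGG, at 10 to 5 bases before it. Il12rb2, the neighbour of Il23r, had 1 match each to CACCC and TTCNNNGAA. Il18r1, the neighbour of Il18rap, had 3 windows, the first 2 overlapping, with 1, 2 and 2 matches to CACCC. Its last window also held 2 matches to TTCNNNGAA. Among all windows of this length, 52.0% held CACCC, 32.7% held GGGCGG, 7.02% held TTCNNNGAA and 14.0% held AGGTCA. Windows with a CACCC or GGGCGG match are thus common, and the share of windows with 2 matches to a motif was not counted. A match here is a run of letters and not a binding site, and the arrays hold no binding data.

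In the knockout Il18rap fell, Il23r and Il17rb rose, and the other 4 measured chains did not pass the test. The question put to the data was how the loss of Klf13 bears on these receptors. Values are on the log2 scale as deposited, and a change is the knockout mean minus the wild-type mean of 2 arrays each. With limma and Benjamini-Hochberg adjustment over all 19938 genes, 3 of the 7 chains passed the threshold of 0.05, against 2.25% of all genes. Of the 7, 2 were higher, where 1.19% of all genes were called higher, and 1 was lower, where 1.05% were called lower. For all 7 chains the knockout arrays did not overlap the wild-type arrays, against 47.6% of all genes. The groups lay apart with the knockout higher for 5 chains (24.4% of all genes) and lower for 2 (23.2%). The median absolute change of the 7 chains was 0.34, beside 0.10 for all genes, and 0 chains changed by 2-fold or more. The chains were chosen with earlier results of these data known, so these shares are no test of the set. All 3 calls were close to the threshold and were lost without WT replicate 1 and without WT replicate 2. Without WT replicate 1 the changes of Il18rap, Il23r and Il17rb were -0.43, 0.44 and 0.56, and without WT replicate 2 they were -0.40, 0.49 and 0.53. Those fits gave all 7 chains the same standard error, 0.166, so their p-values do not rest on each chain's own spread. At an unadjusted limma p under 0.05, a looser rule that 16.6% of all genes met, all 7 chains passed with the 4 arrays.

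**Figure D1:**
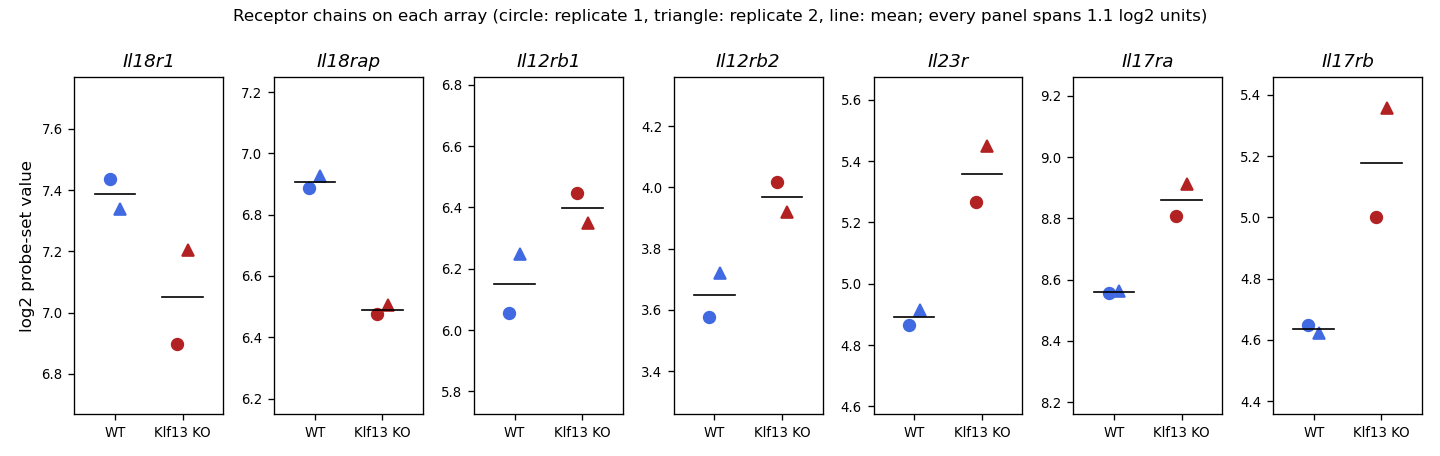
The log2 probe-set value of each of the 7 measured receptor chains on each array, by genotype, with circles for replicate 1, triangles for replicate 2 and a line at the mean of 2 arrays. Both knockout arrays lie below both wild-type arrays for Il18r1 and Il18rap and above them for Il12rb1, Il12rb2, Il23r, Il17ra and Il17rb.

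Among the IL-18 receptor chains, Il18rap was the one that passed. Its log2 values were 6.48 and 6.50 in the knockout against 6.89 and 6.93 in the wild type. Arrays of a genotype lay within 0.04 of each other, and the groups were 0.38 apart at their nearest points. Il18rap fell 1.33-fold, from 6.91 ± 0.03 to 6.49 ± 0.02 (SD, n = 2; log2 fold change -0.42, SE 0.09, limma adjusted p = 0.0468). At least as large a change was seen in 3.31% of all genes. The call was lost after a further quantile normalization (adjusted p = 0.0952) and after cyclic loess (0.0824). It was also lost without KO replicate 1, WT replicate 1 or WT replicate 2, where the changes were -0.40, -0.43 and -0.40.

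Il18r1, which encodes the ligand-binding chain, read 6.90 and 7.20 with Klf13 deleted and 7.44 and 7.34 in wild-type cells. Its 2 knockout arrays differed by 0.30, and KO replicate 2 lay 0.13 below the lower wild-type array. The change of -0.34 (SE 0.12, 95% interval -0.59 to -0.08, limma adjusted p = 0.186) did not pass. It depended on the knockout array: without KO replicate 2 it was -0.49 and passed (adjusted p = 0.0385), and without KO replicate 1 it was -0.18. Il18rap and Il18r1 had changes of the same sign. The interval of Il18r1 left out 0, but its unadjusted p of 0.0153 did not hold after adjustment over all genes.

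Among the chains of the IL-12 and IL-23 receptors, the private chain of the IL-23 receptor passed. Il23r read 5.27 and 5.45 with Klf13 deleted and 4.87 and 4.91 in wild-type cells, so that the groups were 0.35 apart. Its wild-type values were not far above the medians of the tested genes on those arrays, 4.59 and 4.61. Il23r rose 1.38-fold, from 4.89 ± 0.03 to 5.36 ± 0.13 (SD, n = 2; log2 fold change 0.47, SE 0.10, limma adjusted p = 0.0430). A change of this size or larger was seen in 2.31% of all genes. The call was lost after centring each array on its median (adjusted p = 0.0509). It was also lost without WT replicate 1 and without WT replicate 2, where the changes were 0.44 and 0.49.

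Il12rb2, the private chain of the IL-12 receptor, read 4.02 and 3.92 with Klf13 deleted and 3.58 and 3.72 in wild-type cells. The 2 groups were 0.20 apart, and the change of 0.32 (SE 0.10, 95% interval 0.10 to 0.54, limma adjusted p = 0.142) did not pass. All of these values lay below the array medians of the tested genes, 4.59 to 4.71, a range in which folds of dim probe sets are compressed. Il12rb1, the chain shared by both receptors, read 6.45 and 6.35 in the knockout arrays against 6.05 and 6.25 in the wild-type arrays. Its groups were 0.10 apart, less than the 0.19 between the 2 wild-type arrays, and its change of 0.25 (SE 0.10, 95% interval 0.02 to 0.47, limma adjusted p = 0.267) did not pass. All 3 chains of these receptors thus had positive changes, of which that of Il23r passed.

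Of the IL-17 receptor chains, Il17rb rose. It read 5.00 and 5.36 with Klf13 deleted and 4.65 and 4.62 in wild-type cells. The wild-type arrays were within 0.03 of each other, whereas the knockout arrays differed by 0.35, as much as the gap between the groups. Both wild-type values lay just above the medians of the tested genes on those arrays, 4.59 and 4.61. The rise was 1.46-fold, from 4.64 ± 0.02 to 5.18 ± 0.25 (SD, n = 2; log2 fold change 0.54, SE 0.12, limma adjusted p = 0.0493), and 1.49% of all genes changed by as much or more. KO replicate 2 carried more of it: the change was 0.72 without KO replicate 1 and 0.37 without KO replicate 2 (adjusted p = 0.0508). The call was also lost after a further quantile normalization (adjusted p = 0.0609) and after cyclic loess (0.0981). The same held without WT replicate 1 and without WT replicate 2, where the changes were 0.56 and 0.53.

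Il17ra, the common chain, read 8.81 and 8.91 in the knockout arrays and 8.56 on both wild-type arrays, which differed by 0.0066. The groups were 0.24 apart, and the change of 0.30 (SE 0.09, 95% interval 0.09 to 0.51, limma adjusted p = 0.146) did not pass. It passed with a variance trend and robust moderation (adjusted p = 0.0210) and after cyclic loess (0.0479), so the side of the threshold depended on the model and on the scaling.

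**Figure D2:**
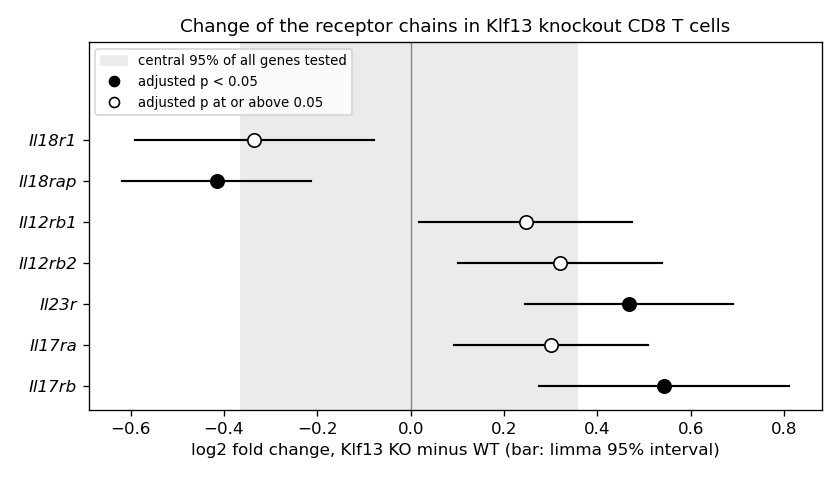
Log2 fold change, knockout minus wild type, of the 7 receptor chains with limma's 95% interval. Filled points passed the threshold, open points did not, and the grey band holds the central 95% of changes over all genes, from -0.36 to 0.36. Il18rap, Il23r and Il17rb lie outside the band and the other 4 chains inside it.

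Fold changes varied with signal level across these arrays, so each chain was set beside the 1000 genes of most similar mean level. Their median change was -0.09 around Il18rap and Il18r1, 0.03 around Il23r and 0.07 around Il17rb. It was -0.08 around Il12rb1 and Il17ra and 0.08 around Il12rb2. Less these medians, the changes were -0.33 for Il18rap, -0.25 for Il18r1, 0.43 for Il23r and 0.48 for Il17rb. For Il12rb1, Il12rb2 and Il17ra they were 0.32, 0.24 and 0.38. Every chain kept its sign, and the fall of Il18rap was the one most reduced among the called chains.

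Chains that form one receptor, or share one, were compared within each array, as the log2 value of one chain minus that of the other. For 5 such pairs the knockout mean was set against the wild-type mean with an exact two-sided permutation test, which with 2 arrays against 2 can give no p below 0.333. Il18rap minus Il18r1 was -0.42 and -0.70 in the knockout and -0.55 and -0.41 in the wild type. The groups overlapped: the change of Il18rap minus that of Il18r1 was -0.080 (exact p = 0.667, adjusted over the 5 pairs 0.667), and it turned to 0.057 without KO replicate 2. Il12rb2 minus Il12rb1 differed by 0.074 between genotypes, a sign that turned after a further quantile normalization (-0.0070) and after cyclic loess (-0.061). The change of Il23r exceeded that of Il12rb1 by 0.22 and that of Il17rb exceeded that of Il17ra by 0.24. For these 3 pairs the groups lay apart (exact p = 0.333, adjusted 0.556 each). Il23r minus Il12rb2 differed by 0.15, with overlapping groups (exact p = 0.667, adjusted 0.667). No difference between partner chains could be shown with so few arrays.

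Il18r1 and Il18rap lie side by side on chromosome 1, in a row with Il1r2, Il1rl2 and Il1rl1, other receptors of the IL-1 family, in RefSeq's gene order. Il1rl2, which encodes the IL-36 receptor chain, read 5.08 and 5.49 with Klf13 deleted and 5.76 and 5.57 in wild-type cells. Its change of -0.39 (limma adjusted p = 0.194) did not pass. It was -0.18 without KO replicate 1 and -0.59 without KO replicate 2, where it passed. It also passed after median centring (adjusted p = 0.0417) and with the replicate number as a block (0.0192), a fit that gave all named genes the same standard error. Il1r2, a decoy receptor for IL-1, differed by -0.14 (limma adjusted p = 0.533), and by -0.061 without KO replicate 1. On the other side, the change of Slc9a4, a sodium-proton exchanger gene, was 0.01 and that of Slc9a2, another of that family, was 0.09, both with overlapping groups.

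Il12rb2 and Il23r are direct neighbours on chromosome 6, with changes of 0.32 and 0.47. The nearest measured genes outside this pair were Serbp1, which encodes an RNA-binding protein (-0.17, limma adjusted p = 0.387), and Rpia of the pentose phosphate pathway (-0.05, limma adjusted p = 0.900). Beside Il17rb on chromosome 14, Chdh, which encodes choline dehydrogenase, read 4.85 and 5.00 with Klf13 deleted and 4.47 and 4.54 in wild-type cells. Its difference of 0.42 (limma adjusted p = 0.0600) did not pass, although the groups lay apart. Next to Il12rb1 on chromosome 8, the arrestin family gene Arrdc2 differed by -0.39 (limma adjusted p = 0.0789), opposite in sign to Il12rb1. Of 20 measured neighbours of the 8 chains, 0 passed limma's test after adjustment (2.25% of all genes did) and 4 had an unadjusted p under 0.05 (16.6% of all genes). Groups lay apart for 8 of the 20, against 47.6% of all genes. Changes of the neighbours ran from -0.39 to 0.42 with a median of -0.05.

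**Figure D3:**
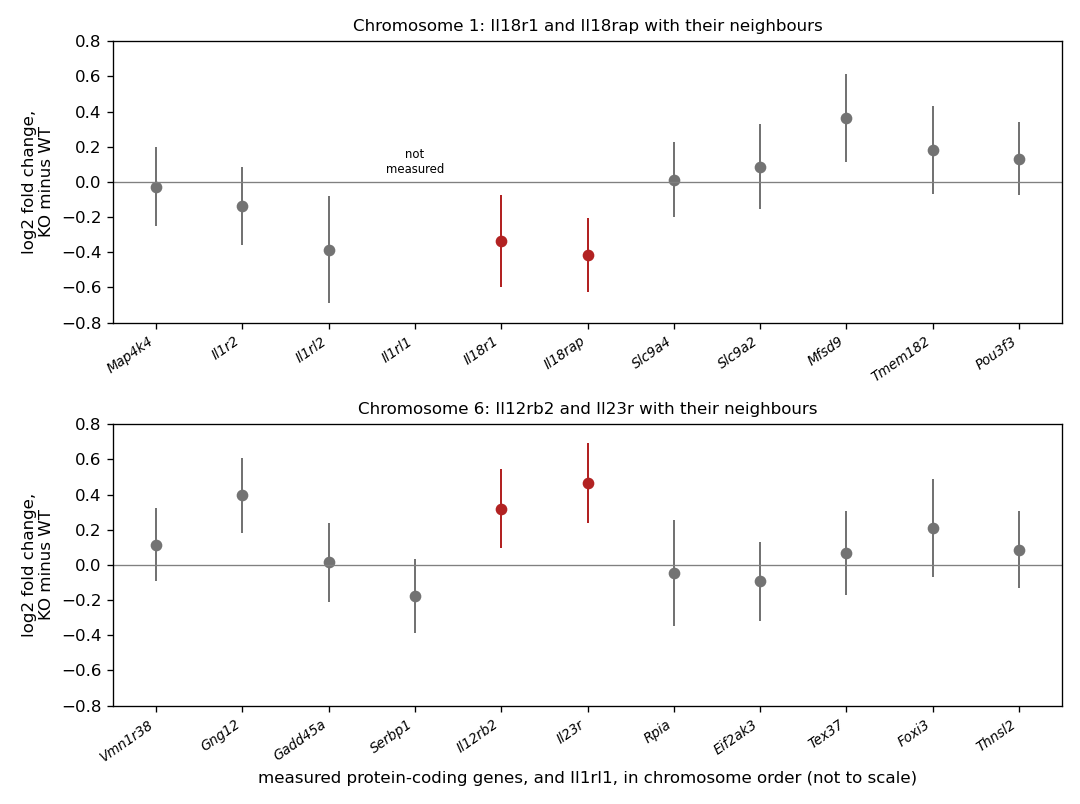
Log2 fold change, knockout minus wild type, with limma's 95% interval, of measured genes in chromosome order around Il18r1 and Il18rap (upper panel) and around Il12rb2 and Il23r (lower panel). The 4 receptor chains of the list are in red: on chromosome 1 Il18r1 and Il18rap lie at -0.34 and -0.42, beside the neighbour Il1rl2 in grey at -0.39, and on chromosome 6 Il12rb2 and Il23r lie at 0.32 and 0.47.

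Genes that act with these receptors mostly did not pass. Over 6 lists with 90 different measured genes, 1 gene was called lower and 0 higher, which is 1.11% against 2.25% of all genes. That direction depended on the scaling: after a further quantile normalization, and after cyclic loess, the 1 gene called was Rora, which was higher. With the replicate number as a block 12 were called, 6 of them higher, in a fit that gave all named genes the same standard error. The one that fell in the fit as reported was Stat4, the transcription factor that IL-12 activates. It read 9.22 and 9.17 with Klf13 deleted and 9.63 and 9.58 in wild-type cells, a gap of 0.36. The log2 fold change of Stat4 was -0.42 (1.33-fold lower, limma adjusted p = 0.0493). Like the calls among the receptor chains this one was marginal. It was lost after a further quantile normalization (adjusted p = 0.0750) and after cyclic loess (0.0885). It was also lost without KO replicate 1, WT replicate 1 or WT replicate 2, where the changes were -0.44, -0.39 and -0.44.

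Of 17 measured ligands, related receptors, kinases and STAT factors of the IL-12, IL-23 and IL-27 group, 16 did not pass, and the list median was 0.0024 beside 0.015 for all genes. The cytokine subunit genes Il27 and Ebi3, whose products form IL-27, differed by 0.42 and 0.33 (limma adjusted p = 0.109 and 0.124), with the knockout arrays above the wild-type arrays for both. Among 12 ligands, decoys and other receptors of the IL-1 and IL-18 family 0 passed limma's test, and the median was 0.034. Of these 2 had an unadjusted p under 0.05, met by 16.6% of all genes. Sigirr, an inhibitory member of this receptor family, differed by -0.27 (limma adjusted p = 0.247), and by -0.15 without KO replicate 1. Il1rap, the accessory chain of the IL-1, IL-33 and IL-36 receptors, read 4.78 and 5.41 in the knockout and 5.45 and 5.35 in the wild type. Its groups overlapped (-0.31, limma adjusted p = 0.410), and without KO replicate 1 the difference was 0.0081 and without KO replicate 2 it was -0.62 (adjusted p = 0.0308).

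Of 17 genes of MyD88 signalling 0 passed limma's test (5 at an unadjusted p under 0.05, met by 16.6% of all genes), and the median was 0.0028. The inhibitory kinase-like gene Irak3 differed by 0.37, the kinase gene Ikbkb by -0.28 and the adaptor gene Tab1 by -0.24 (limma adjusted p = 0.110, 0.183 and 0.234). Of 16 output genes of IL-12 and IL-18 in T cells 0 passed limma's test (5 unadjusted), with a median of -0.0054. The chemokine gene Ccl3 (-0.41), the stress response gene Gadd45b (-0.34) and the IL-2 receptor chain Il2ra (0.38) had the smallest p (limma adjusted p = 0.110, 0.151 and 0.162). Without KO replicate 1 Ccl3 was at -0.26, and without WT replicate 2 Il2ra was at 0.22. Ccl3 and Gadd45b passed after median centring (adjusted p = 0.0191 and 0.0336) and without KO replicate 2 (0.0331 and 0.0478).

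Of 10 measured genes of the IL-23 and type 17 list 0 passed limma's test (4 at an unadjusted p under 0.05, met by 16.6% of all genes). The knockout arrays lay above the wild-type arrays for 5, as for 24.4% of all genes. The median was 0.074, the highest of the 6 lists. Rora, a ROR family transcription factor of type 17 and innate lymphoid cells, read 6.11 and 6.21 with Klf13 deleted and 5.82 and 5.67 in wild-type cells. It differed by 0.41 (limma adjusted p = 0.0659). It passed after a further quantile normalization (adjusted p = 0.0329), after cyclic loess (0.0455) and among the brighter genes (0.0307). It also passed with the replicate number as a block (0.00910), a fit that gave all named genes the same standard error. The aryl hydrocarbon receptor gene Ahr (0.36) and the chemokine receptor gene Ccr6 (0.31) had groups that lay apart but did not pass (limma adjusted p = 0.141 for each), and Ahr was at 0.22 without WT replicate 1. Of 19 IL-17 ligands, other IL-17 receptors and signalling genes 0 passed limma's test (3 unadjusted), with a median of 0.0016. The adaptor gene Traf5 (-0.38), the receptor chain gene Il17re (0.37) and the NF-kB regulator gene Nfkbiz (-0.37) had the smallest p (limma adjusted p = 0.0716, 0.120 and 0.140), and Nfkbiz was at -0.23 without KO replicate 1.

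**Figure D4:**
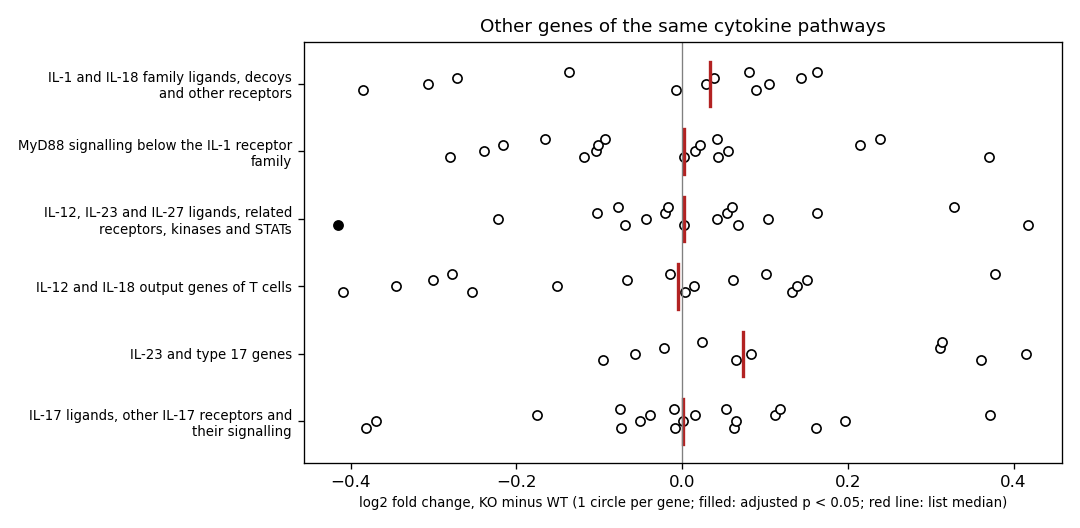
Log2 fold change, knockout minus wild type, of the measured genes of 6 lists around the receptors, 1 circle per gene, filled where the adjusted p was below the threshold, with a red line at each list's median. The filled circle, at -0.42, is Stat4, and the list medians run from -0.0054 to 0.074.

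The genes whose profiles over the 4 arrays were most like those of the called chains were found by the root mean square difference of the log2 values, each gene centred on its own mean. Nearest to Il18rap were Hmmr, which encodes a mitotic spindle protein (difference 0.012), and the RNA gene Snhg16 (0.013). Nearest to Il23r were Arl2bp, which encodes a partner of the small GTPase ARL2, and As3mt, which encodes an arsenic methyltransferase (0.021 each). Nearest to Il17rb were Gria3, a glutamate receptor subunit gene (0.021), and the sialyltransferase gene St8sia6 (0.027). Of these 6 genes Snhg16, As3mt and St8sia6 passed the test and the other 3 did not, with a likeness that rests on 4 arrays.

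The level of Klf13 was 5.45 ± 0.02 in knockout and 7.08 ± 0.10 in wild-type samples (SD, n = 2), a 3.10-fold fall with a limma adjusted p = 3.75e-05, in the direction of the labels; whether its probe set lies in the deleted part is not known here. The labelled cell type was checked on 7 CD8 T markers, of which 0 passed limma's test (1 unadjusted); Cd8a read 11.1 on each array except WT replicate 1 (11.3), and Cd4 read 3.47 to 4.07. Markers of other cells moved beside the receptor chains, and fewer cells of a type and less RNA per cell cannot be told apart in such samples. Of 9 neutrophil and monocyte markers 6 rose: Mpo, Elane, Prtn3, Lyz2, Csf1r and Mpeg1. Their changes ran from 0.58 (Csf1r) to 1.97 (Mpo). Itgam (0.16), S100a8 (0.30) and S100a9 (0.23) were higher on both knockout arrays but did not pass. These 3 read 2.98 to 4.19, below the array medians of the tested genes, 4.59 to 4.71. The list means of all 9 were 5.46 and 5.54 in the knockout and 4.53 and 4.58 in the wild type. Of 6 B cell markers 2 rose, Ighm (0.80) and Cd74 (0.53), with list means of 6.08 and 6.18 against 5.68 and 5.76. Cd79b (0.51), Cd79a (0.32) and Pax5 (0.24) did not pass, and Ms4a1 (0.01) had overlapping groups. Of 5 regulatory T cell markers 2 rose, Ikzf2 (0.59) and Gpr83 (0.92), with list means of 5.13 and 5.38 against 4.99 and 4.81. The others did not pass: Il2ra differed by 0.38, Foxp3 had overlapping groups (0.18), and Ctla4 was lower on both knockout arrays (-0.33). Over all genes 1.19% were called higher.

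Of the cell types known for Il17rb, Il23r and Il1rl1, the 3 measured NKT and gamma-delta T markers Zbtb16, Sox13 and Blk differed by 0.27, 0.20 and 0.22. Of these 0 passed limma's test (1 unadjusted), and their list means were 6.24 and 6.42 in the knockout against 6.06 and 6.14 in the wild type. Of 9 markers of type 2 innate lymphoid cells, mast cells and basophils, the basophil protease gene Mcpt8 rose (0.63, limma adjusted p = 0.00665) and 8 did not pass. An unadjusted p under 0.05, met by 16.6% of all genes, was found for 5 of the 9. Of these the receptor gene Kit (0.40), the mast cell gene Ms4a2 (0.35) and the transcription factor gene Gata2 (0.35) were higher in the knockout, and the mast cell protease gene Cpa3 (-0.30) was lower. The rest of this list, the type 2 genes Gata3, Il5 and Il13 and the mast cell and basophil gene Fcer1a, had overlapping groups. Their changes were -0.04, -0.0008, 0.06 and 0.04. The list means of all 9 were 5.52 and 5.51 in the knockout against 5.37 and 5.32 in the wild type. Of 6 NK cell markers Tyrobp rose (0.62) and 5 did not pass, with list means of 3.42 and 3.59 against 3.36 and 3.32. Ncr1 (0.41) and Klrb1c (0.22) were higher on both knockout arrays. Klra8 (-0.09), Gzma (-0.22) and Klre1 (0.03) had overlapping groups. Of 3 CD4 T cell markers 0 passed and 1 had an unadjusted p under 0.05 (list means 4.52 and 4.26 against 4.25 and 4.20). The part of these cells in the changes of Il18rap, Il23r and Il17rb was not tested.

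**Figure D5:**
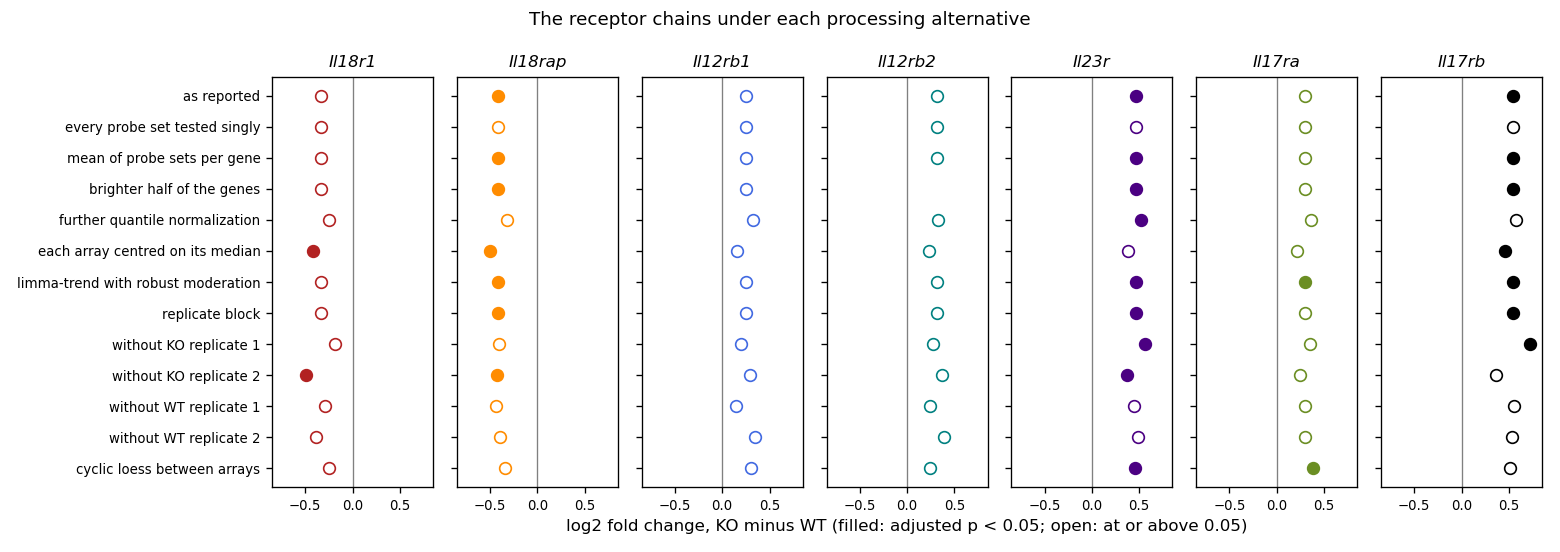
Log2 fold change, knockout minus wild type, of the 7 receptor chains in the fit as reported and under each processing alternative, filled where the adjusted p was below the threshold. The sign of every chain is the same in each setting shown, while the calls for Il18rap, Il23r and Il17rb are lost in several. They are lost in both settings that leave out a wild-type array, where all 7 chains have the same standard error, 0.166.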

How the data were processed

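RNA of 4 samples (2 Klf13 knockout, 2 wild type) was hybridised to 1-colour Affymetrix whole-transcript arrays. The authors deposited log2 probe-set values; per the submitters' processing notes, RMA and Partek were used, with no versions or genome build given. RMA quantile-normalizes probe values between arrays, which removes most of a shift shared by all genes, and compresses dim folds. The deposited columns were not fully alike: their upper quartile was 6.52 and 6.63 in the knockout and 6.67 and 6.66 in the wild type. The number of arrays limits the precision.

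Of 35556 probe sets, 21789 had 1 gene symbol in GEO's platform annotation, of which 21698 were renamed by gene identifier through RefSeq (GRCm38.p6, used for names, gene order and upstream sequences). Each gene was read from its single-symbol probe set with the highest mean, giving 19938 genes, with no filter on level. Probe sets of different genes bind unequally, so their levels were not ranked against each other. Groups were compared in R 4.3.3 by limma 3.58.1 (linear model of genotype alone with empirical Bayes moderation; two-sided tests at a Benjamini-Hochberg adjusted p under 0.05 over all genes), after the script had been tested on simulated data. Receptor chains and lists were chosen with earlier results of these data known.

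Named were the 8 chains, Klf13, Il1rap, up to 3 genes with the smallest p per list and any that passed, neighbours on the chromosome (2 on each side) and the 2 most similar profiles per called chain; Slc9a4, Slc9a2 and Rpia fall under the neighbours. Named markers are those that passed, those defining the cells, or all of a short list. The motifs were chosen after the values had been seen. The closing section gives the alternatives; cyclic loess was added after the data had been seen.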

Additional observations from a re-analysis of the deposited data

How the results depend on the processing

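Across 11 or 12 alternatives, each of the 7 receptor chains kept its sign, while the number of called chains went from 3 to 0 with every probe set tested singly and to 1 after a further quantile normalization, and ranged from 0 to 3 with 1 array left out. Il18rap was called in 6 of 12 alternatives, Il23r in 8 of 12 and Il17rb in 6 of 12. With every probe set tested singly the changes were as reported (-0.42, 0.47 and 0.54), but over 35556 probe sets the adjusted p rose to 0.187, 0.212 and 0.258. A further quantile normalization took Il18rap to -0.32 and Il17rb to 0.58, cyclic loess took them to -0.34 and 0.51, and in these fits both calls were lost. Centring each array on its median took Il23r to 0.38 (call lost) and Il18r1 to -0.42 (adjusted p = 0.0466). Il17ra passed at 0.30 with a variance trend and at 0.38 after cyclic loess. The cause of these moves was not tested.

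With 1 array left out, the lone sample is assumed to vary like the others. Without a wild-type array the receptor chains all had the same standard error, 0.166, so those fits did not weigh each chain's own spread. Changes then ranged from -0.49 to -0.18 for Il18r1, -0.43 to -0.40 for Il18rap, 0.15 to 0.34 for Il12rb1, 0.25 to 0.39 for Il12rb2, 0.38 to 0.56 for Il23r, 0.25 to 0.35 for Il17ra and 0.37 to 0.72 for Il17rb. The difference of change between Il18rap and Il18r1 was -0.218 without KO replicate 1 and turned to 0.0573 without KO replicate 2. That between Il12rb2 and Il12rb1 turned to -0.00703 after a further quantile normalization and to -0.0613 after cyclic loess. Il1rap was at -0.620 without KO replicate 2 and turned to 0.00814 without KO replicate 1.

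Over all genes 448 were called (53.1% higher in the knockout). The count was 39 with every probe set, 1088 after median centring (21.8% higher), 831 with a variance trend (42.1% higher), and 264 to 1536 with 1 array left out; the share higher was 70.6% after a further quantile normalization. Of the pathway genes 1 was called, and lower, in the fit as reported, 0 with every probe set, 3 among the brighter genes (where Il12rb2 was not tested), 1, Rora and higher, after a further quantile normalization or cyclic loess, 6 after median centring and 0 to 11 with 1 array left out. With the replicate number as a block 1187 genes and 12 pathway genes (6 higher) were called, and the same 3 chains. That fit gave the receptor chains and the other named genes the same standard error, 0.115, and so did not weigh each gene's own spread. For 32 other genes that the text names or counts, 377 values under alternatives held 17 lost calls, 52 gained calls and 1 reversal. The numbers are not stated to pair the samples, and deviations of same-numbered arrays correlated at 0.0074 across genes.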
